A study of Mus musculus with 47 samples.

Results

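The regions described here are the widest H3K27me3 domains of mouse liver. A domain is a stretch of an autosome called as 1 H3K27me3 region with column 3 minus column 2 of 150000 bp or more in the control male list, the control female list or both, after wide regions that overlapped were merged across the 2 lists. Domains were thus chosen by their measured width in the control lists, and their coverage there is a description. There were 635 such domains among the 17266 merged autosomal H3K27me3 regions of the control livers, and they held 150.2 Mb of sequence. The study asked how H3K27me3 marks and activating marks of male and female liver change when both methyltransferases that make the mark are missing. Livers of 7-week-old mice were compared between floxed controls (Ezh2 f/f) and E1/E2-KO animals of both sexes. The latter are Ezh1-/-, without Ezh1 in any cell, and Ezh2 f/f with Alb-Cre, in which the albumin promoter drives Cre, so that hepatocytes lose Ezh2 and the remaining cells of the liver keep it. Chromatin of whole liver was precipitated for H3K27me3, H3K27ac and H3K4me1 from 4 livers a group by the methods, and the reads of a group were pooled before regions were called. The labels used here list only 3 livers for H3K4me1 in E1/E2-KO females, and whether that list holds 3 or 4 is not known. Each mark therefore has 4 lists, 1 for each sex and genotype, with positions only. With no heights, read counts or replicate lists, no difference between groups was tested, the depth behind each list is unknown, and ranges in brackets after a median or share are 95% intervals over domains, peaks or genes that do not cover variation between animals. A run of 4 values without labels gives the controls first, male then female, and then the E1/E2-KO livers, male then female.

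H3K27me3 is laid down by polycomb repressive complex 2, whose catalytic subunit is Ezh1 or Ezh2, and is found at genes that a cell keeps silent. Broad blankets of the mark are best known over clusters of developmental regulators such as the Hox genes, which pattern the body axis in the embryo and are silent in the adult hepatocyte. H3K27ac marks active enhancers and promoters, and H3K4me1 marks enhancers whether active or poised, so both are called activating marks here.

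Stretches of sequence show examples from domains that stayed covered and from domains or stretches that did not. The first 3 are the 120 bases just before the start of a developmental gene whose start stayed in an H3K27me3 region in both E1/E2-KO lists, the next 3 are the 120 bases at the middle of the 3 domains with the least H3K27me3 left, and the last 2 are the middle of the widest E1/E2-KO male H3K27ac peak in the longest stretches, within a gene, that lost the mark in both sexes. All were read from the mm9 (NCBIM37) genome, 5′ to 3′ on the strand given, with each CG dinucleotide in capitals. The first 3 lie at gene starts and the others do not, so their CG counts do not compare domains. Over whole domains the median was 12.9 CG per kb with a developmental factor and 9.52 with no gene start.

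Hoxa13, chr6:52210875-52210994, minus strand, 21 CG: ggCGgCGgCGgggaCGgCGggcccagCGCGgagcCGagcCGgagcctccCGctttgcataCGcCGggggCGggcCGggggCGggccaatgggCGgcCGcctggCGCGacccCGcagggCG
Pou3f1, chr4:124334776-124334895, plus strand, 19 CG: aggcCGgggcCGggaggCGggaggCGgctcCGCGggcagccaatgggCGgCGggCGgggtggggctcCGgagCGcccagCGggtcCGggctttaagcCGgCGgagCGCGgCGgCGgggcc
Pax2, chr19:44830419-44830538, plus strand, 7 CG: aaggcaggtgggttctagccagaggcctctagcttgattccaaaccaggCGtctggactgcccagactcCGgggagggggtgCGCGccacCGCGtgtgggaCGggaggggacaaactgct
Middle of the chr10:36909601-37126800 domain, chr10:37018141-37018260, plus strand, 1 CG: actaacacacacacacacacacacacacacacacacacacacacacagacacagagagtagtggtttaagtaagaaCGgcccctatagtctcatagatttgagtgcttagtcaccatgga
Middle of the chr1:76824001-76985200 domain, chr1:76904541-76904660, plus strand, 3 CG: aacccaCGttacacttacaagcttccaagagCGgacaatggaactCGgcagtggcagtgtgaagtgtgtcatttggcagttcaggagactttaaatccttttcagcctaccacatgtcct
Middle of the chr8:33140001-33302000 domain, chr8:33220941-33221060, plus strand, 1 CG: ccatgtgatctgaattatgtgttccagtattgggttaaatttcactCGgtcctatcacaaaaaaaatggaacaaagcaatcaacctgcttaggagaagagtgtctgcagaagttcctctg
Peak in Tshz2, chr2:169520015-169520134, plus strand, 2 CG: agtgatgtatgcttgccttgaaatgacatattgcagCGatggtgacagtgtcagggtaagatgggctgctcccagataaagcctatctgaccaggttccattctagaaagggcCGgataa
Peak in Adamts12, chr15:11120673-11120792, plus strand, 0 CG: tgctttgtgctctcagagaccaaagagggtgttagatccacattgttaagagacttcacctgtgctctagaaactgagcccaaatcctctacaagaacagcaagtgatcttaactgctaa

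The domains had a median width of 207.2 kb and reached 937.6 kb. The control male list contributed 597 wide regions and the control female list 387. Of the merged domains, 331 were wide in both lists, 255 only in the male list and 49 only in the female list. Near the threshold the choice was arbitrary: 3 control male regions and 5 control female regions of exactly 150000 bp failed the rule by 1 bp, and the narrowest accepted regions measured 150400 bp. The first 3 of the control male regions that failed were covered to 66.4, 97.3 and 76.3% by the E1/E2-KO male list, and 3 of the narrowest accepted ones to 94.1, 98.1 and 100%. For control female regions the same list covered the first 3 that failed to 100% each, and 3 accepted ones to 100, 92.0 and 98.1%. Domains took up 12.1% of chromosome 9 and 12% of chromosome 11 but 1.97% of chromosome 3. Their sequence was 46.3% GC, against 44.4% in other control H3K27me3 regions of 50 kb or more and 40.5% outside every H3K27me3 region, so the widest domains lay in the most GC-rich H3K27me3 sequence.

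Most domains stayed covered by H3K27me3 in E1/E2-KO liver. The E1/E2-KO male list covered a median of 97.6% (97.1 to 98.1%) of a domain and the E1/E2-KO female list 93.6% (92.6 to 94.6%). By the rule that chose them, the domains were covered to a median of 100% in the control male list and 97.4% in the control female list. Counted over all bases rather than domain by domain, coverage was 99.2, 94.4, 92.7 and 87.3%. Coverage counts bases inside a called region and does not measure the level of the mark, which can fall while the region is still called. In both E1/E2-KO lists, 360 of the 635 domains kept at least 90% of their bases. Whole liver mixes hepatocytes with cells that keep Ezh2, and mark that stayed in hepatocytes cannot be told apart from mark of those other cells.

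Few domains were mostly outside the mark in E1/E2-KO liver. In the E1/E2-KO male list 15 domains, 2.36% (1.44 to 3.86%), were under 50% covered, where 34.3% of all merged control regions were. In the E1/E2-KO female list 35 domains, 5.51% (3.99 to 7.57%), were under 50% covered, where 44% of all merged control regions were. All 15 domains of the male list were among the 35 of the female list. The female count includes domains that were scarcely marked in control females, and among the 387 wide regions of the control female list itself 12 were under 50% covered. The share rose as regions narrowed, through 15.2% and 22.6% (male and female lists) of other regions of 50 kb or more and 35.1% and 45.3% of those of 20 to 50 kb, to 54.8% and 66.6% of those under 20 kb. In the control female list, without any knockout, 7 domains (1.1%) and 27.8% of all merged control regions were under 50% covered. At a limit of 75% covered, 54 domains fell short in the E1/E2-KO male list and 99 in the female one, beside 45.3% and 57.6% of all merged control regions.

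**Figure D1:**
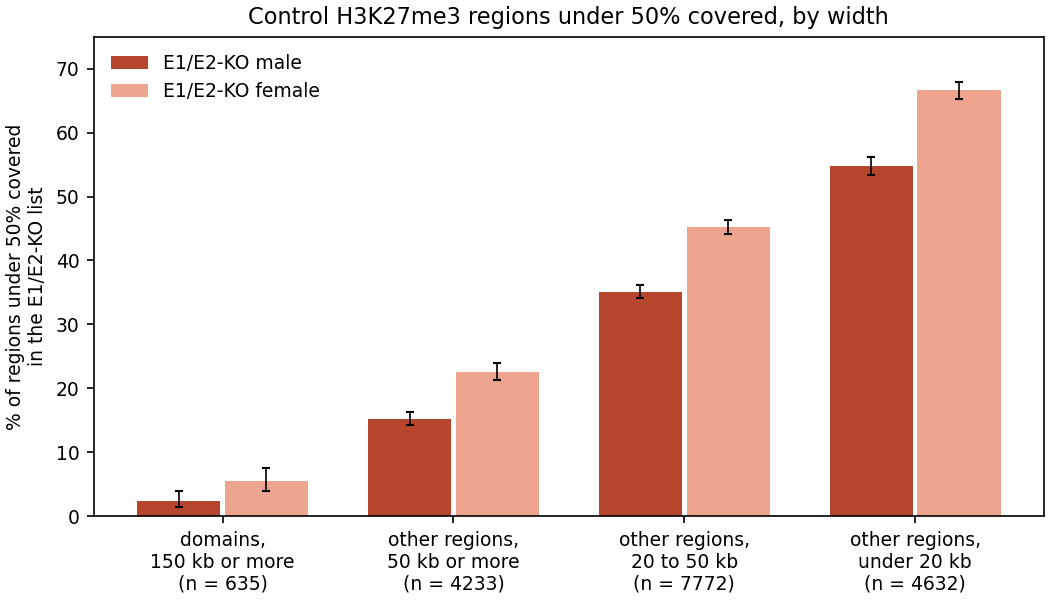
Percent of merged control H3K27me3 regions (y axis) that were under 50% covered in the E1/E2-KO male and female lists, for the domains and for 3 narrower classes of control region (x axis, n regions in each); error bars are 95% Wilson intervals. The domains stand at 2.36% and 5.51%, below every narrower class.

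Because domains were chosen for being wide in a control list, any other list tends to cover less of them. Each choice was therefore also read in the lists of the other sex, which it did not use. For the 597 male-chosen regions, the control female list covered a median of 97.0% and the E1/E2-KO female list 93.6%. The median difference was -1.57 percentage points (-2.08 to -0.94), with 380 regions lower in E1/E2-KO, 195 higher and 22 equal. A drop of at least 25 points was found in 57 of them and a rise of that size in 3, but 95% of the regions were already covered to 76% or more in control females and had little or no room for such a rise. For the 387 female-chosen regions, the control male list covered a median of 99.6% and the E1/E2-KO male list 98.9%, and the median difference was 0 (-0.231 to 0), with 182 lower, 132 higher and 73 equal. Here 15 regions fell by at least 25 points, while next to none could rise by as much, since the lowest control male coverage was 74.6%. The typical domain thus changed little in either choice, and the drops of 25 points have no fair counterpart in rises.

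The choice made the other way gave high coverage too. E1/E2-KO liver had 660 regions over the width threshold in males and 406 in females, and these merged into 701 E1/E2-KO domains. The control male list covered a median of 96.0% of these and the control female list 93.1%, and 13 and 25 of them were under 50% covered. Of the control domains, 463 (72.9%) overlapped an E1/E2-KO domain, and 469 (66.9%) of the E1/E2-KO domains overlapped a control domain. The number of H3K27me3 domains over the width threshold therefore was not lower in E1/E2-KO liver than in control liver of either sex.

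**Figure D2:**
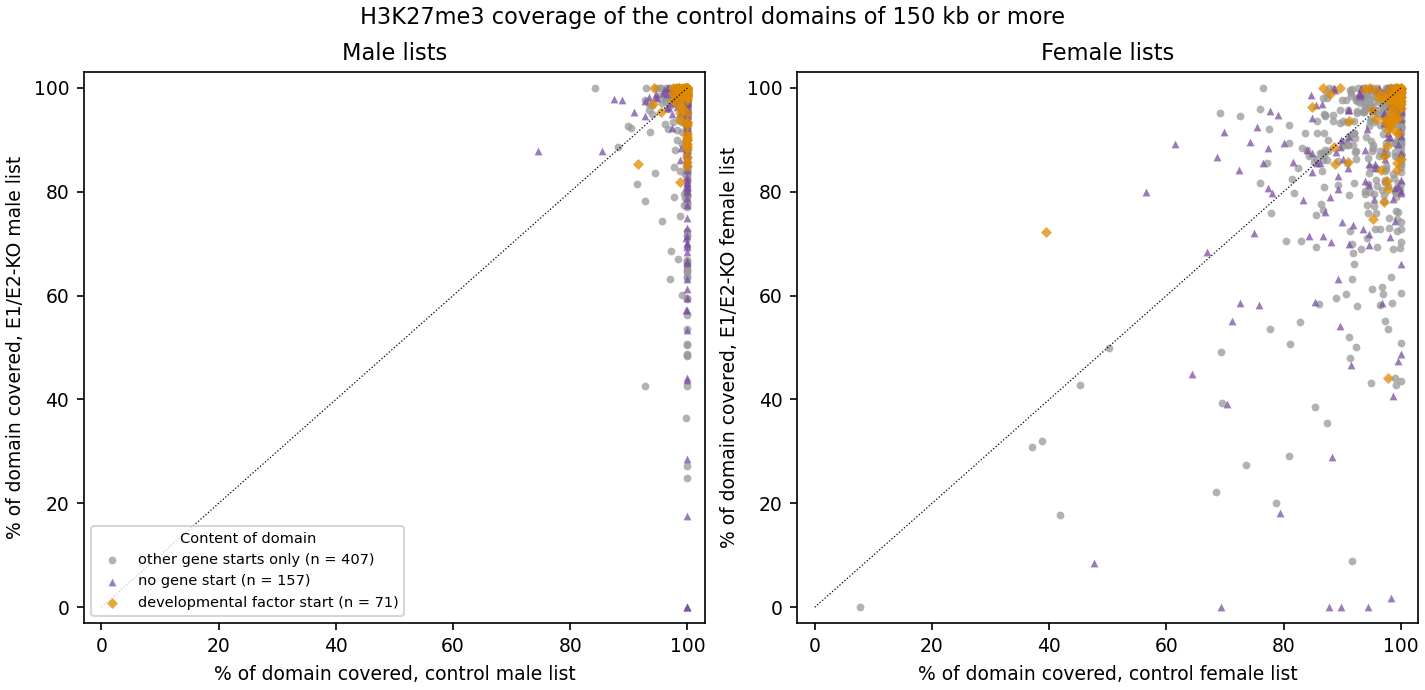
Percent of each of the 635 domains covered in the control list (x axis) and the E1/E2-KO list (y axis) of males (left) and females (right); each point is 1 domain, marked by what starts inside it, and the dotted line is equality. Most points lie in the top right corner, 3 domains lie at 0 in the E1/E2-KO male list and 5 in the E1/E2-KO female list, and of the domains with a developmental factor 1 falls below 50%, in females.

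Many domains were in several pieces in every list but control male. In the control male list 517 domains were a single region and 17 were in 3 or more pieces, while in the E1/E2-KO male list 305 were a single region and 124 were in 3 or more. In the control female list 268 were a single region and 189 were in 3 or more, while in the E1/E2-KO female list 209 were a single region and 213 were in 3 or more. The most pieces in 1 domain were 5 and 8 in the control lists and 7 and 8 in the E1/E2-KO lists (male and female). The choice fixes part of this, since most domains are 1 region of the control male list by the rule. Chosen the other way, the 701 E1/E2-KO domains averaged 1.97 and 2.52 pieces in the control male and female lists and 1.23 and 2.01 in the E1/E2-KO lists. Read in the lists of the other sex, the 597 male-chosen regions averaged 2.16 pieces in control females and 2.14 in E1/E2-KO females, with 192 in more pieces in E1/E2-KO, 186 in fewer and 219 equal. The 387 female-chosen regions averaged 1.36 pieces in control males and 1.57 in E1/E2-KO males, with 114 in more, 66 in fewer and 207 equal. Read this way, the number of pieces hardly differed by genotype in females and was slightly higher in E1/E2-KO males. A region with no mark left counts as 0 pieces, so fewer pieces can mean lost as well as joined regions, and these were not separated. Gaps were short: once regions of a list less than 10000 bp apart were joined, 80.8% of domains were a single piece in the E1/E2-KO male list and 69.8% in the E1/E2-KO female list, up from 48.0% and 32.9%.

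Coverage was lowest at the ends of domains. Over the outermost 2 of 20 equal bins, mean coverage was 96.3, 81.5, 80.9 and 70.7%. Over the middle 10 bins it was 99.6, 95.8, 93.8 and 89.8% in the same order. The ends were fixed by the control lists, and the control female list dipped there as well. The middle bins were also less covered in the E1/E2-KO list than in the control list of the same sex. The choice of wide control regions raises control coverage there too, and no profile was made for another choice. These values therefore do not show a loss apart from the choice.

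**Figure D3:**
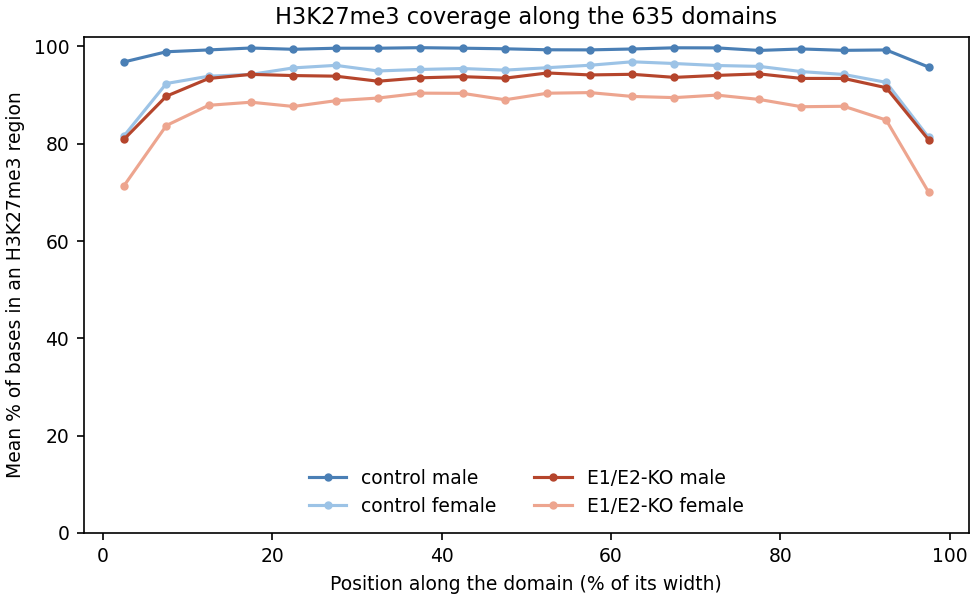
Mean percent of bases inside an H3K27me3 region (y axis) in 20 bins along the 635 domains, from the left to the right edge (x axis, percent of domain width); each line is 1 list. All 4 lists dip towards the edges, control male the least, and E1/E2-KO female is lowest throughout.

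The domains were rich in developmental regulators of the families listed. Of 322 autosomal developmental transcription factors of these families, 116 (36.0%) had their start in a domain, where 5.32% of all 21281 autosomal protein-coding genes did. All 39 Hox genes started in domains, 4 in number and 1 for each cluster. The Hox clusters were followed by Pax, with 6 of 9 genes, including Pax2 of kidney and eye development and Pax7 of muscle stem cells. Among other homeobox genes 43 of 143 started in a domain, among T-box genes 5 of 15, among Sox genes 4 of 17, among Fox genes 9 of 40, and among basic helix-loop-helix factors 5 of 40. Gata2 and Gata5, of 5 Gata genes, and the zinc finger genes Gli2, Wt1 and Sall3, of 14, made up the rest. Of the secreted signals of development, 8 of 39 Wnt and Fgf genes started in a domain, among them Wnt7a and Fgf9, as did 3 of 28 Bmp, Gdf and hedgehog genes. Outside transcription factors and signals, 21 of 91 potassium channel genes, 7 of 41 collagen genes and 8 of 66 axon guidance genes did so. Shares nearer to that of all genes were found for neurotransmitter receptors (7 of 88), synaptic adhesion genes (3 of 38), and cadherins and protocadherins (4 of 57), and a lower one for serpin and apolipoprotein genes (1 of 76). Keratin, keratin-associated and defensin genes had 63 of 150 starts in only 5 domains, 1 of which (chr11:99165201-99552800) held 32 protein-coding gene starts, including some outside these families.

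Tandem clusters of sensory genes were not in domains. None of 1106 olfactory receptor genes and none of 323 vomeronasal receptor genes started in a domain, which allows a share of up to 0.346% and 1.18% (Wilson intervals). None of 75 ribosomal protein genes and none of 10 hepatocyte marker genes did so either, and 3 of 97 cytochrome P450 genes did: Cyp26b1, Cyp11a1 and Cyp46a1. Markers of other liver cells were present in part. Of 9 Kupffer cell markers 5 started in domains (C1qa, C1qb, C1qc, Clec4f and Csf1r), as did 4 of 10 stellate cell markers (Des, Lrat, Col1a1 and Pdgfrb), 1 of 10 endothelial markers (Kdr), 2 of 6 cholangiocyte markers (Krt7 and Krt19) and 0 of 10 lymphocyte markers. These genes are silent in hepatocytes but active in their own cells, and whole liver holds all of these cells. In the tissue check, 7, 9, 9 and 9 of the 10 hepatocyte markers had H3K27ac within 2 kb of their start. Hepatocyte marker starts inside an H3K27me3 region numbered 0, 0, 4 and 3, endothelial marker starts 8, 8, 5 and 4 of 10, and ribosomal protein starts 1, 0, 8 and 5 of 75. Over all 21281 protein-coding genes, 7674, 7190, 8672 and 6957 starts lay inside such a region. Kupffer cell marker starts there numbered 8, 7, 6 and 6 of 9, stellate cell marker starts 10, 10, 10 and 9 of 10, lymphocyte marker starts 8, 7, 8 and 7 of 10, and cholangiocyte marker starts 6 of 6 in each list.

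Domains nevertheless were no denser in genes than unmarked sequence. They held 7.54 protein-coding gene starts per Mb (7.11 to 7.99), against 7.58 outside every H3K27me3 region and 9.62, 11.1 and 12.8 in the narrower control classes, from wide to narrow. No protein-coding gene overlapped 85 of the domains, and another 72 lay inside or across a gene with no gene start in them. Of the rest, 71 domains held the start of at least 1 developmental factor, and the other 407 held only other genes. Domains with developmental factors had the largest median width, 235.6 kb, and those with no gene start the smallest, 194.4 kb. A wider domain has more room for a gene start, so the sorting itself favours a narrower class without starts. Median GC content was 47.7% in the developmental domains and 44.3% in those with no gene start. Starts that were CpG-rich, taken as 500 bases each side with over 50% GC and an observed CpG over expected above 0.6, made up 72.4% (63.7 to 79.7%) of developmental starts in domains, 37.2% of other starts in domains and 45.2% of all starts. None of the 63 keratin and defensin starts were CpG-rich.

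Developmental domains stayed covered to a larger share than those with no gene start. Their median coverage was 98.8% and 96.9% in the E1/E2-KO male and female lists. Domains with only other genes were covered to 97.4% and 93.5%, and those with no gene start to 97.0% and 90.4%. Control female liver had the same order, at 98.4, 97.4 and 95.3%. None of the 71 domains with a listed developmental factor was under 50% covered in the E1/E2-KO male list and 1 was in the E1/E2-KO female list. Among domains with only other genes it was 8 of 407 (1.97%) and 20 of 407 (4.91%). Among those with no gene start it was 7 (4.46%) and 14 (8.92%). Over all 635 domains the shares were 2.36% and 5.51%, at which few of 71 domains would be counted, so these low counts show little about developmental domains. These counts depend on the lists: the Tshz2 domain, which counts among those with only other genes, was under 50% in both E1/E2-KO lists. Across the 635 domains, the mean E1/E2-KO coverage rose with GC content (Spearman's rho 0.30) and hardly with width (rho 0.059). Coverage of a domain in the E1/E2-KO male and female lists had a rho of 0.67. These are descriptions over domains that share the same 2 lists.

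The Hox clusters stayed inside called H3K27me3 regions across all their genes. The whole span of all 39 Hox genes lay in an H3K27me3 region in each of the 4 lists. The Hoxa domain (chr6:51968001-52283600, 315.6 kb) was 100% covered, in 1 piece, in both E1/E2-KO lists. The Hoxd domain (chr2:74451201-74663200) was covered to 100% and 99.8% in the E1/E2-KO male and female lists, the Hoxc domain (chr15:102547201-102920400) to 99.1% and 98.3%, and the Hoxb domain (chr11:95943601-96254400) to 90.1% and 97.4%. Over all 116 developmental factors in domains, 113, 110, 111 and 110 were covered over their whole span. Among the other 1016 genes with their start in a domain, 704 (69.3%) and 621 (61.1%) were fully covered in the E1/E2-KO lists and 758 (74.6%) and 679 (66.8%) in the control lists.

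Few gene starts left the mark. Of 1113 starts that lay in a domain and in a control male region, 43 (3.86%) were outside every E1/E2-KO male region, where 14.4% of all starts in control male regions were. In females it was 69 of 1084 (6.37%), against 19.9% of all starts in control female regions. Both sexes shared 18 of 1065 starts (1.69%), against 7.38% of all starts marked in both control lists. None of the 18 belongs to the listed developmental families, which held 115 of the 1065 starts. At a share of 1.69% few of those 115 would be counted, so the absence shows little about these families. They included Tshz2, a teashirt-family zinc finger and homeobox factor that the lists do not hold, Anxa2, an annexin, Pkm2, which encodes a pyruvate kinase, Bcl2l11, which encodes the pro-apoptotic protein Bim, and Pygm, the muscle glycogen phosphorylase. Sox12 was the sole developmental factor whose start left the mark in 1 list: its span was covered to 100, 100, 100 and 0%. Gli2, a transcription factor of hedgehog signalling, kept its start in the mark in all lists, but its gene body was covered to 95.6, 89.1, 56.4 and 34.0%. Its domain (chr1:120866001-121376000) was the developmental domain under 50% covered in E1/E2-KO females, at 44.2%.

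The 6 longest domains stayed largely covered. The longest (chr9:60718801-61656400, 937.6 kb) holds Tle3, which encodes a Groucho-family co-repressor. It was covered to 92.7, 98.9, 97.7 and 89.5%, in 5, 1, 4 and 7 pieces, and the Tle3 start was outside the mark in E1/E2-KO females. The domain of Runx1, a regulator of blood formation (chr16:92615601-93406800), fell from 100% to 95.9% in males and from 94.5% to 83.6% in females. The domain of Phactr1, which encodes an actin regulator (chr13:42524001-43244400), went from 100% to 91.6% in males and from 96.2% to 86.8% in females. Near-complete coverage remained in the domains of Spaca7, a sperm gene (chr8:11937201-12629600), at 98.4% and 97.3% in the E1/E2-KO male and female lists, and of the dopamine receptor gene Drd2 with the neural adhesion gene Ncam1 (chr9:49140401-49790800), at 94.7% and 98.5%. The domain of the zinc finger gene Zfp423 (chr8:90010401-90641600) was covered to 100% and 92.7%. All 6 were wide in both control lists, and none fell below 80% in either E1/E2-KO list.

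The longest domains covered to 100% in both E1/E2-KO lists were the domains of the calcium channel gene Cacna1i (chr15:80096801-80502800, 406 kb), the potassium channel gene Kcnma1 (chr14:24382401-24754800), Lypd6b (chr2:49530801-49852000), the POU factor gene Pou3f1 (chr4:124035601-124354400) and Hoxa. The Kcnma1 domain held 0 H3K27ac and 0 H3K4me1 peaks in every list, and 16 of the 635 domains were free of both marks in all lists.

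Of the 5 domains with the least H3K27me3 left, 4 held no gene start, and all 5 were wide in the control male list only. The domain at chr10:36909601-37126800, which overlaps no protein-coding gene, was covered to 100% and 89.9% in the controls and had no region in either E1/E2-KO list. The one at chr1:76824001-76985200 was covered to 100% and 69.2% in control male and female liver and was also empty in both E1/E2-KO lists. The one at chr8:33140001-33302000 was covered to 100% and 98.3% in the controls, and to 0% and 1.73% in E1/E2-KO males and females. The one at chr10:91507201-91710800 was covered to 100% and 79.4% in the controls, and to 17.5% and 18.1% in E1/E2-KO liver. The fifth (chr8:91640801-91807600, with Gm5356) was already at 7.67% in control female liver, and at 24.9% and 0% in E1/E2-KO males and females. Of the 15 domains under 50% in both E1/E2-KO lists, 7 were at least 80% covered in both control lists. Genes that start in these 7 include Tshz2, Adamts12, Atp8a1, Pkm2 and Myo9a.

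Taken as bases, 10.7 Mb (7.18%) of the domain sequence marked in control male liver was unmarked in E1/E2-KO males, and 15.0 Mb (10.5%) in females. The choice of wide control regions favours such loss, here and below, and bases marked only in E1/E2-KO liver are not counted. All autosomal H3K27me3 regions together came to 765.3, 630.1, 749.7 and 633 Mb. Sequence marked in both control lists and in neither E1/E2-KO list came to 5.13 Mb (4.00%), in 537 stretches with a median of 3.6 kb. The longest of these, 161.6 kb, lay inside the Tshz2 gene (chr2:169500401-169662000). The Tshz2 domain (chr2:169278401-169734400, 456 kb) was covered to 92.8, 91.7, 42.6 and 8.95%. The lost stretch held 1, 5, 11 and 6 H3K27ac peaks and 12, 11, 19 and 11 H3K4me1 peaks. The peak whose sequence is shown above spans 887 bp of a Tshz2 intron (chr2:169519632-169520518), 61.4 kb from the gene start, and both activating marks were called there in all 4 lists. The next 4 stretches measured 139.2 kb (chr8:33162801-33302000, no gene), 112.4 kb (chr10:36918001-37030400, no gene), 76.8 kb (chr15:11077201-11154000, in the metalloprotease gene Adamts12) and 73.2 kb (chr8:91899201-91972400, no gene). In Adamts12 the 369 bp peak shown above, also intronic, had H3K27ac in both E1/E2-KO lists and in neither control list, and H3K4me1 in both control lists and in neither E1/E2-KO list.

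**Figure D4:**
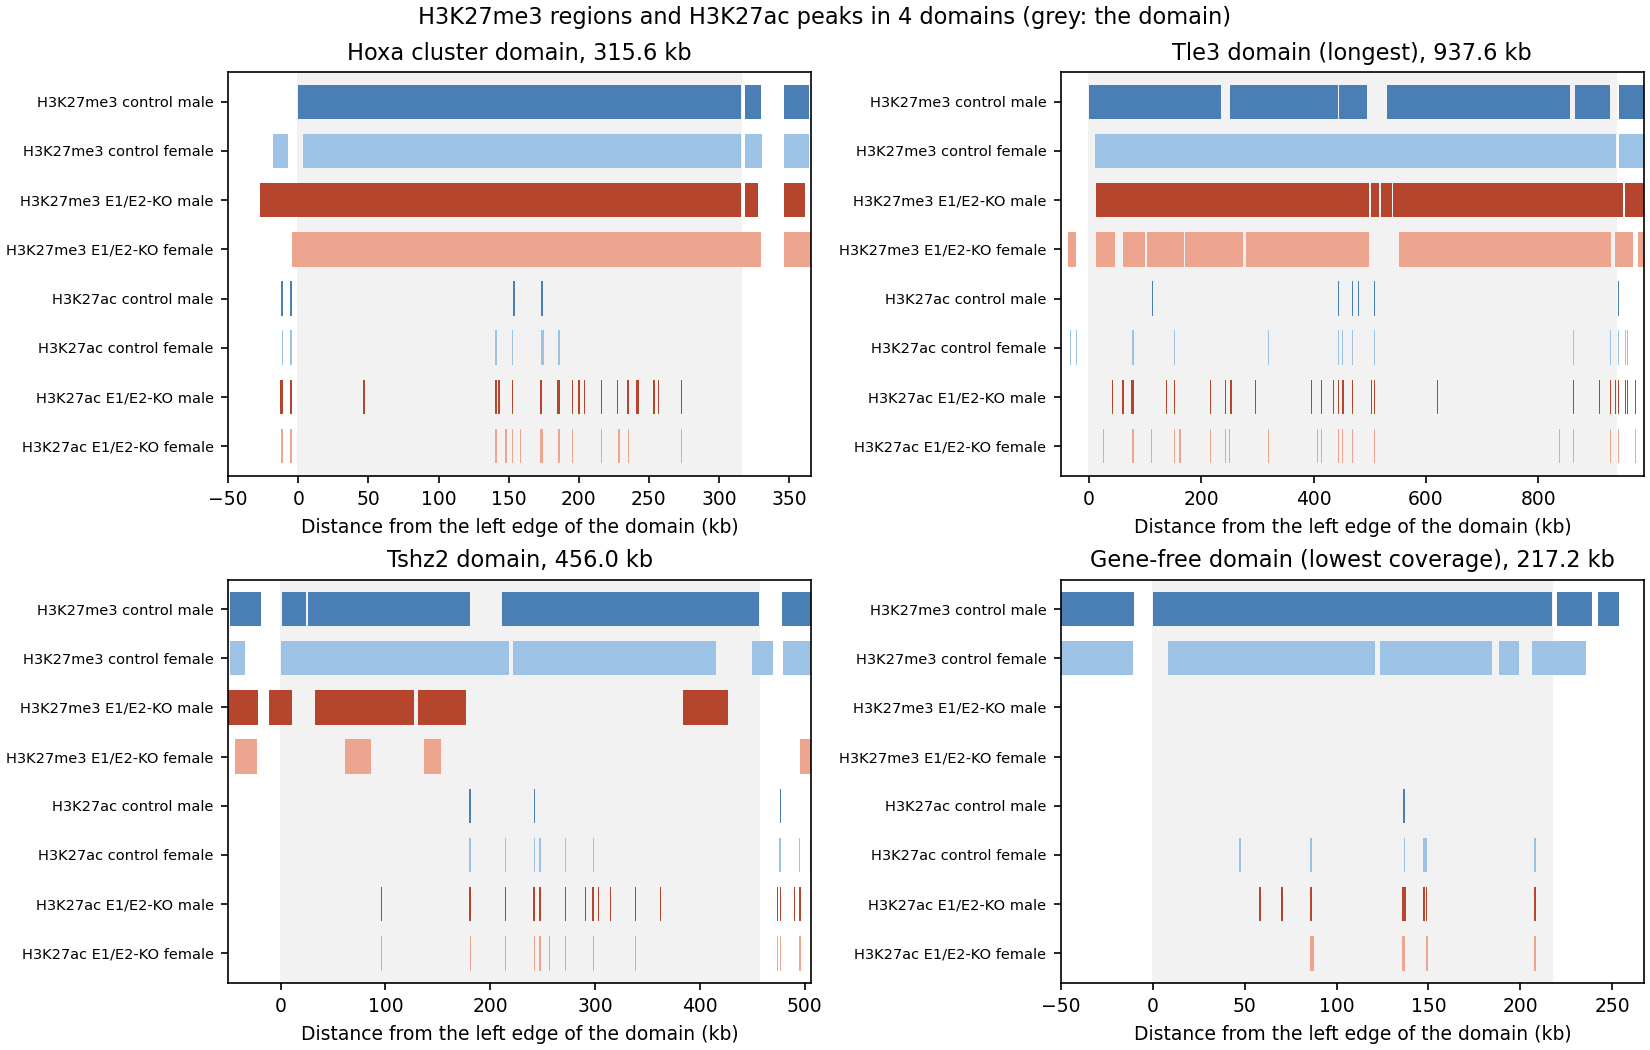
H3K27me3 regions (4 upper rows) and H3K27ac peaks (4 lower rows, drawn at least 1 kb wide) of the 4 lists in the Hoxa, Tle3 and Tshz2 domains and the chr10:36909601-37126800 domain, as distance from the left edge of the domain (x axis, kb), with the domain in grey. The Hoxa domain is a single unbroken piece in every list, starting at 3.2 kb in control females, with 2, 5, 18 and 12 H3K27ac peaks. The Tshz2 domain and the gene-free domain are mostly or wholly empty of H3K27me3 in E1/E2-KO.

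Lost bases were poorer in gene starts and richer in activating peaks than kept bases. Lost bases held 4.02 gene starts per Mb in males and 4.62 in females, against 7.74 and 8.01 at kept bases, and their GC content was 43.8% against 46.4% in males and 45.1% against 46.5% in females. In E1/E2-KO males the lost bases held 26.3 H3K27ac peaks per Mb (23.3 to 29.5) and the kept bases 13.0 (12.4 to 13.6), a ratio of 2.02. In E1/E2-KO females the values were 27.6 (25 to 30.4) and 10.5 (9.92 to 11.1), a ratio of 2.63. The same bases already differed in control liver, by a ratio of 2.09 in males (6.92 against 3.31 per Mb) and 2.63 in females (22.1 against 8.41). H3K4me1 peaks gave ratios of 1.40 and 1.96 in E1/E2-KO males and females and 1.67 and 2.3 in the controls. The contrast between lost and kept bases thus was found in control liver too, at ratios no smaller than in E1/E2-KO liver for H3K4me1 and about equal for H3K27ac.

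Inside the domains, H3K27ac peaks were sparse in control liver. The density was 3.70 (3.40 to 4.02), 10.9 (10.4 to 11.5), 14.2 (13.6 to 14.8) and 13.3 (12.7 to 13.9) per Mb. The lists differ in length, with the control male H3K27ac list the shortest, so the density outside every H3K27me3 region serves as a yardstick: 12.8, 20.2, 22.0 and 19.8 per Mb. Relative to it, domains had 0.289, 0.541, 0.646 and 0.671 of the density. H3K4me1 peaks numbered 21.7, 18.3, 29.2 and 20.8 per Mb in domains and 26.6, 20.4, 23.4 and 17.9 per Mb outside. This mark was less depleted, at 0.814 and 0.899 of the outside density in the controls, and exceeded it in E1/E2-KO liver, at 1.25 and 1.16. Part of that step lies in the outside density, which was lower in E1/E2-KO liver than in controls of the same sex. By this yardstick both marks were relatively denser in the domains in E1/E2-KO liver in both sexes, with the larger step in males. The H3K27ac lists held 28862, 48858, 55055 and 50426 autosomal peaks, and the outside density need not correct for such differences. The part of list length in the male H3K27ac step was not tested. Narrower regions changed in the same direction: in other control regions of 50 kb or more the relative density was 0.453, 0.683, 0.783 and 0.814 for H3K27ac and 0.949, 1.04, 1.32 and 1.28 for H3K4me1.

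**Figure D5:**
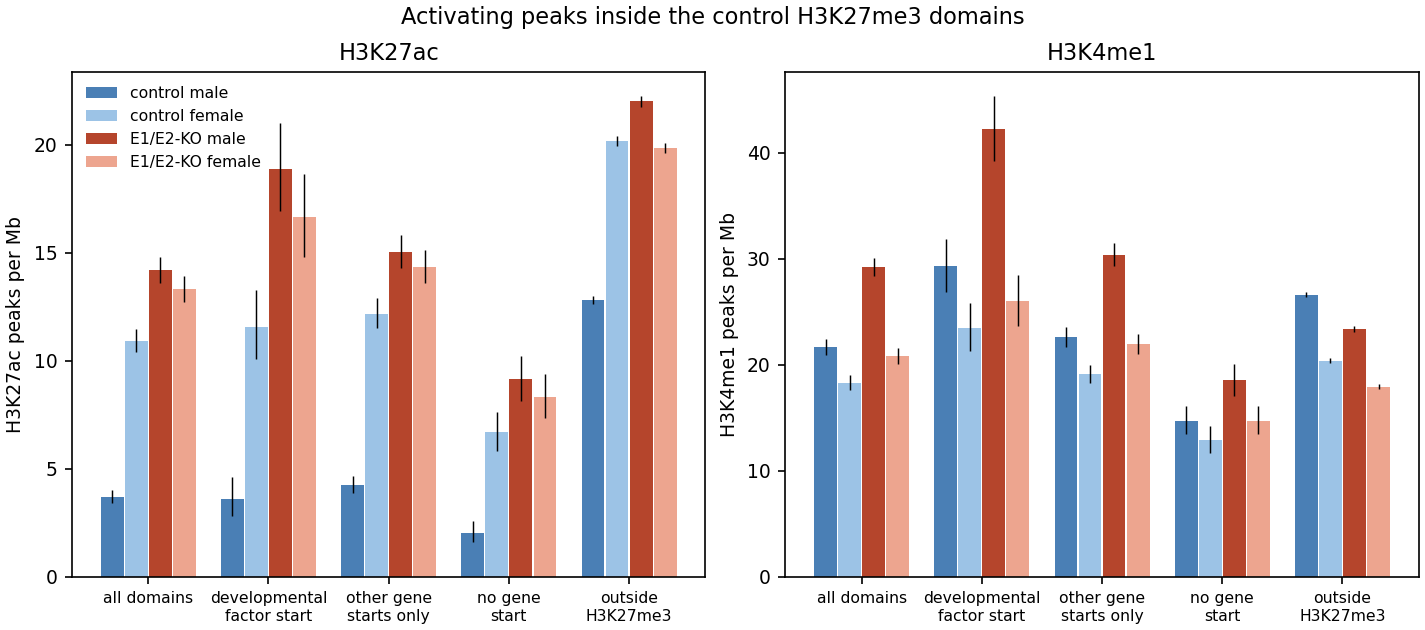
H3K27ac (left) and H3K4me1 (right) peaks per Mb (y axis) in all domains, in domains split by what starts inside them, and outside every H3K27me3 region (x axis); bars are the 4 lists and error bars 95% Poisson intervals, for counting error only. Domains with no gene start have the fewest peaks, and the E1/E2-KO male bars of domains with a developmental factor are the tallest among the domains.

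Domain by domain, 457 of the 635 held more H3K27ac peaks in the E1/E2-KO list than in the control list of males and 8 held fewer, while in females 260 held more and 119 fewer. The male lists also differ as a whole, with 28862 autosomal H3K27ac peaks for the controls and 55055 for E1/E2-KO, so these counts alone show nothing particular to the domains. For H3K4me1 it was 415 and 94 in males and 304 and 149 in females. No such count was made for narrower regions. There too H3K4me1 was denser in E1/E2-KO liver, at 25.2, 21.2, 30.8 and 23.0 peaks per Mb in other control regions of 50 kb or more. Developmental domains had 3.62, 11.6, 18.9 and 16.6 H3K27ac peaks per Mb, and domains with no gene start 2.05, 6.70, 9.14 and 8.32. The Tle3 domain had the most H3K27ac peaks, with 9, 23, 50 and 45. In control liver the domain densest in activating peaks (chr8:11023201-11201200) held no gene start. Only 1.56% of it lay in a protein-coding gene, the basement membrane collagen gene Col4a1. Next came the domains around Sult2b1 and the glutamate receptor gene Grin2d (chr7:52980801-53132000) and at Srcin1 (chr11:97358001-97516800). The domain that overlaps Col4a1 held 7, 13, 12 and 18 H3K27ac peaks and was covered to 100, 78, 98.7 and 79.8%.

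At Hox and other developmental gene starts that stayed inside H3K27me3 regions, H3K27ac peaks appeared. Of the 39 Hox genes, 2, 5, 18 and 15 had an H3K27ac peak within 2 kb of the start. Of the 37 Hox starts without one in control male liver, 16 had one in E1/E2-KO male liver, 43.2% (28.7 to 59.1%), where 14.7% of all such starts of the genome did. In females it was 10 of 34, 29.4% (16.8 to 46.2%), where 5.72% did. Neighbouring Hox genes can share a peak, so these counts are not independent. Hoxd12, Hoxd9, Hoxd8, Hoxd3, Hoxa3, Hoxa6, Hoxa11 and Hoxb2 gained one in both sexes. Over all 116 developmental factors in domains, the new starts were 33 of 106 (31.1%) in males and 16 of 96 (16.7%) in females, and outside the Hox clusters both sexes shared Pax3, Msx1, Uncx and Gata2. Pax2, whose upstream sequence is shown above, had a new peak in E1/E2-KO males and none in females. Other genes in domains gained H3K27ac at 155 of 846 starts (18.3%) in males and 57 of 719 (7.93%) in females. Keratin and defensin genes gained it at 3 of 63 and 2 of 61 starts. All domain starts together gained it at 19.7% and 8.96%, close to the 20.7% and 8.80% of starts in narrower control regions. Of 10 endothelial markers 1, 4, 6 and 8 had H3K27ac within 2 kb, of 9 Kupffer cell markers 0, 1, 0 and 0, of 10 stellate cell markers 1, 2, 1 and 2, of 10 lymphocyte markers 0, 1, 0 and 0, and of 6 cholangiocyte markers 1, 2, 2 and 1. The part of such cells in the new H3K27ac starts was not tested.

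H3K4me1 at developmental starts went different ways in the sexes. It was within 2 kb of 69, 54, 87 and 43 of the 116 starts. New H3K4me1 starts made up 26 of 47 (55.3%) in males, where 14% of all such starts of the genome were new, and 10 of 62 (16.1%) in females, where 11.1% were. At starts in narrower control regions 22.5% and 15.5% were new, and at other genes in domains 24.3% and 14.8%, so the female share at developmental starts was near that of other starts in H3K27me3 regions. Pdx1 and Cdx2, regulators of pancreas and intestine, and Otx2 and Neurog1, regulators of brain and neurons, were among the new starts in males and not in females. The E1/E2-KO female H3K4me1 list may rest on 3 livers or 4, as said above, and over all genes it marked 9674 starts against 10394 in control females. Over the other 1016 genes with their start in a domain, however, the count went from 402 in control to 423 in E1/E2-KO females. Stellate cell marker starts with H3K4me1 numbered 4, 2, 7 and 4 of 10, endothelial ones 1, 1, 3 and 1 of 10, Kupffer cell ones 0 of 9 in each list, lymphocyte ones 0, 0, 1 and 1 of 10, and cholangiocyte ones 3, 2, 2 and 3 of 6. The part of the number of livers and of such cells in these counts was not tested.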

How the data were processed

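The lists that the authors deposited give where each region lies (chromosome, start and end) and a name, with no other measurement. Per the labels and methods, the authors mapped reads to mm9 with Bowtie2 2.3.2, pooled the reads of a group's livers (47 samples in the labels used here), and called H3K27me3 with SICER 1.1 (windows of 400 bp, gaps to 2400 bp) and both activating marks with MACS2 2.1.1. SICER bridges gaps, so widths and pieces depend on its gap setting and on read depth, which the lists do not give.

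Domains, coverage, pieces, peak midpoints and protein-coding gene starts (GENCODE M1 on NCBIM37, the same build) were computed with Python 3.11.15, numpy 2.4.6 and scipy 1.17.1, and figures drawn with matplotlib 3.10.9. SICER ends lie 1 base before the window's end and were moved by 1. Interval arithmetic was tested on simulated lists. Medians carry order-statistic, shares Wilson and densities exact Poisson 95% intervals, which cover counting error only.

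Domains named were the 6 longest, the 5 lowest and 5 highest in mean E1/E2-KO coverage, those of the 5 longest lost stretches and the 3 with most activating peaks per Mb in controls. Genes named start in these or belong to the listed families. Sox12, Gli2 and Cux2, and the genes named for a lost start or a gained peak, were chosen after their values were seen. The domains, gene lists and marker lists were chosen with earlier results of these data known. Alternatives changed the width, gap and coverage limits, the control list, and peak merging.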

Additional observations from a re-analysis of the deposited data

Results flagged for a closer look

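Changes of opposite sign in males and females were looked for in the named domains (at least 5 percentage points of coverage or 3 peaks each way) and in the gene groups (at least 3 starts each way). In the named domains there were none. Starts with H3K4me1 within 2 kb moved in opposite directions for the developmental factors in domains, by 18 in males and -11 in females, a difference of -29, and for the Hox genes among them, by 7 and -4, a difference of -11. With 1 pooled list a group, the difference between the sexes was not tested.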

How the results depend on the processing

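No paired analysis was possible because reads were pooled before regions were called, so each group has 1 list; for the same reason no replicate could be left out. Of 54 alternative values, 27 moved, either outside the interval of the value reported or, for a count, by over 1.5 times, and none reversed. Median coverage by the E1/E2-KO lists was 97.0% (male) and 90.2% (female) at a width of 100 kb, 98.4% and 95% for domains wide in both controls, and 92.7% and 87.3% over all bases together, which was added after seeing the data. It was 98.9% in males for female-chosen domains, also added, and 96.9% in females for them. Joining gaps up to 10000 bp left 80.8% and 69.8% of domains in 1 piece, and a width of 200000 bp 42.2% in males. Under 75% covered were 54 and 99 domains, and 12 of the 387 female-chosen domains were under 50% in females. Coverage of E1/E2-KO domains at 200000 bp was 97.2% and 94.7% in the control lists. Merging peaks within 1000 bp gave relative H3K27ac densities of 0.318, 0.602, 0.719 and 0.754, and H3K4me1 densities of 0.862 in control and 1.30 in E1/E2-KO males. Within bases marked in control females, H3K27ac densities were 0.489 and 0.619 and the control H3K4me1 density 0.848. At 200000 bp, 3.23% of all genes and 28.0% of developmental factors started in a domain. The lists carry no depth, so absence of a region cannot be told apart from signal too weak to be called.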

Other observations

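Chromosome X, left out of the domains, differed between the sexes. The control female list held 89 H3K27me3 regions of 150 kb or more on it and the E1/E2-KO female list 72, and both male lists held 0. All H3K27me3 regions on it came to 0.958, 97.7, 0.548 and 73.6 Mb (controls, male then female, then E1/E2-KO, male then female). The inactive X chromosome of females is known to carry H3K27me3.

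All 7 domains under 50% covered in control females were wide in the control male list only. They include the domain of Pparg, a nuclear receptor of fat cell formation, and that of Cux2, a homeobox gene known for its female-biased expression in liver. The Cux2 domain was covered to 100, 39.5, 98.8 and 72.3%, with 3, 14, 18 and 17 H3K27ac peaks in that order. Coverage by called regions does not show whether the level of H3K27me3 there changed.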
